A study of Columba livia with 10 samples.

Results

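The genes described here are 9 chaperones and co-chaperones of the HSP70 and HSP90 systems, read in the cerebellum of racing homers after a competition flight or a day of rest. They are HSF1, HSPA8, HSPA2, DNAJB1, BAG3, HSPH1, HSPA4L, HSP90AA1 and AHSA1, out of 22547 genes in the count tables. A list of 10 symbols named them, and the tenth, HSP90AB1, was not analysed here. The list was drawn up with the difference between race and control libraries already known, so that difference is given below as a description, with no test for these genes. All 9 were among the 14172 genes kept by a filter on low counts.

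HSP70 proteins bind unfolded stretches of other proteins and release them in a cycle driven by ATP. J-domain proteins such as DNAJB1 bring substrates and start the cycle, while nucleotide exchange factors such as BAG3, HSPH1 and HSPA4L end it. HSP90 acts later, on nearly folded clients such as kinases and steroid receptors, and AHSA1 stimulates its ATPase. HSF1 is the transcription factor that raises many of these genes when proteins unfold under heat or other stress, and neurons in particular are known to depend on the constitutive member HSPA8.

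The control group was 5 domestic pigeons (Columba livia) of the same loft that rested while the race was flown. The race group was 5 birds of that loft, alike in age, killed on their return from a 300 km flight. All were fed to a competition schedule and trained by the widowhood method, and the labels give no age in figures, no sex and no interval between landing and killing. The whole cerebellum was dissected, and RNA integrity numbers were 9.6 to 10.0. Libraries held 17953704 to 23344086 counts on genes, and the chi-square between libraries was at least 27.5 per gene over 45 pairs, so none was a copy of another. By the labels each library is a separate bird.

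Some facts about the libraries touch every value below. Tables and sample titles both carry a library number, these numbers disagree in 9 of 10 records, and under grouping by title 6 tables change sides. Groups follow the sample record that holds each table. Control 3, control 4 and control 5 had 92 to 94 of 195 W-linked protein-coding genes at 1 CPM (the count scaled to the size of its library) or more, against 24 to 32 in all other libraries; the W chromosome is carried by female birds. Control 1 had a scaling factor of 0.794, against 0.977 to 1.05 in the others, and its profile was the least like the rest (median Spearman rho 0.879), and control 4 had the forebrain gene TBR1 at 76.4 CPM against at most 2.59 CPM in the race libraries. None of the 9 genes lies on Z or W: by the RefSeq annotation of assembly bColLiv1.pat.W.v2, 8 lie on autosomes and DNAJB1 on an unplaced sequence.

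All 9 genes had a lower fitted level in race than in control libraries, with a median log2 fold change of -0.65. The median over all 14172 genes tested was -0.03, and 52.6% of them were lower. In 1 of the 9, BAG3, every race library lay below every control library, which was so of 1.67% of all genes. The quasi-likelihood test of edgeR, adjusted over all genes by Benjamini-Hochberg, called 0 of 14172 genes (0%), and hence 0 of the 9. At an unadjusted p under 0.05, 5 of the 9 were lower (7.14% of all genes were). DESeq2 called 2 of the 9, BAG3 and HSPA2, where it called 1.84% of all genes. Because these genes were listed with this contrast in view, the counts describe them and support nothing. Under grouping by title the median was 0.42, with 7 of the 9 genes higher in race.

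**Figure D1:**
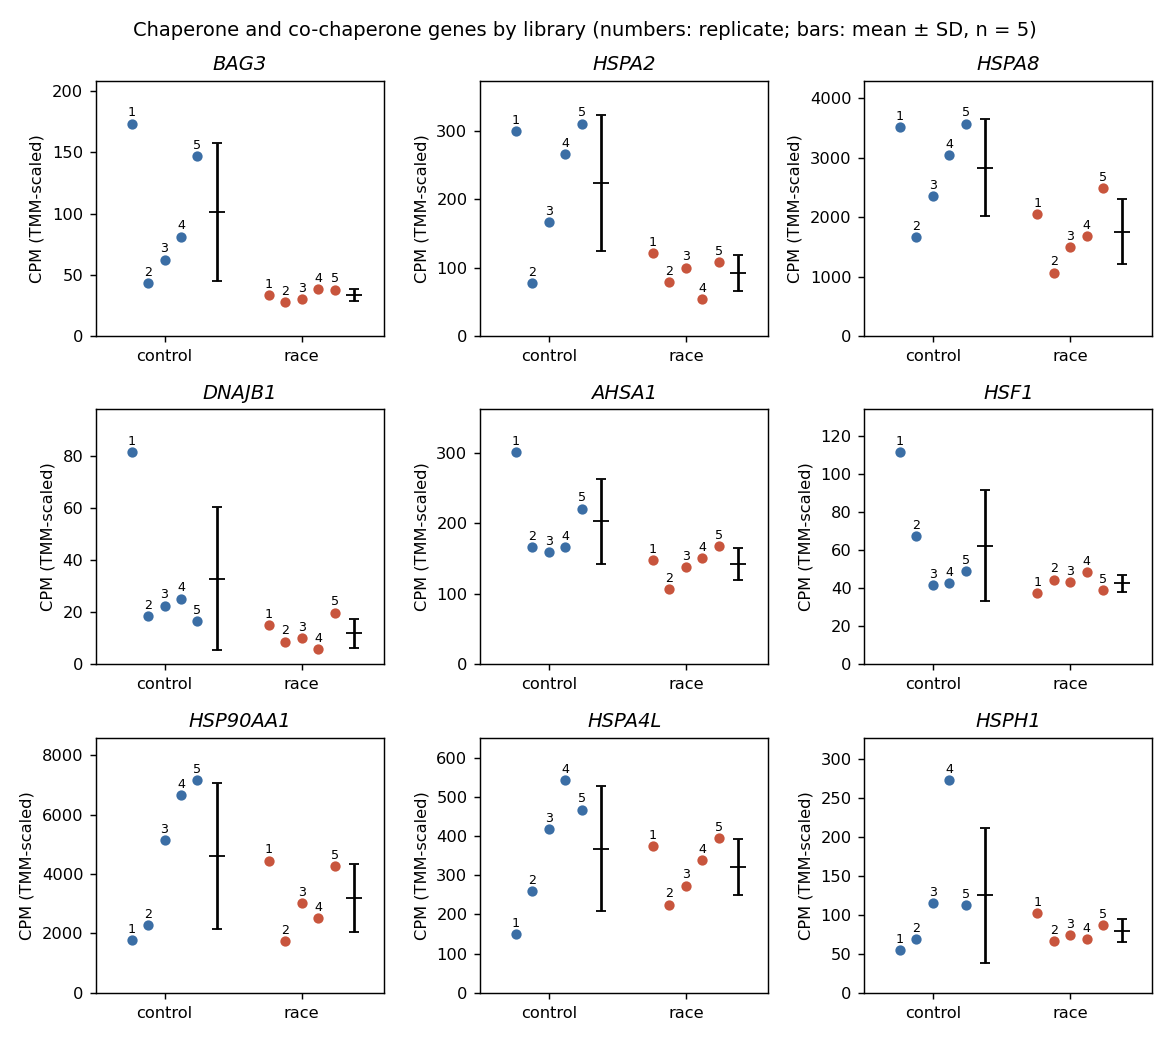
Level of each gene (vertical axis, TMM-scaled CPM, from 0) in the 5 control (blue) and 5 race (red) libraries, with the replicate number above each point and the group mean ± SD as a black bar. The BAG3 points of the race group (27.6 to 38.2 CPM) all lie under the lowest control (43.2 CPM), while HSP90AA1, HSPA4L and HSPH1 are lowest or next to lowest among controls in control 1 and control 2.

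HSF1, the regulator of the response, stood at 112 CPM in control 1, 67.6 in control 2, 41.7 in control 3, 42.6 in control 4 and 49.0 in control 5. In race 1 to race 5 it stood at 37.5, 44.6, 43.5, 48.6 and 39.0 CPM. The race values lay inside the range of control 3, control 4 and control 5 or just under it, and the 2 high libraries were control 1 and control 2. The log2 fold change was -0.55 ± 0.26 (SE), and -0.26 ± 0.16 without control 1. With control 3, control 4 and control 5 left out it was -1.07 ± 0.21.

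HSPA8, the constitutive cytosolic HSP70 that also uncoats clathrin vesicles, stood at 3520.2 CPM in control 1, 1668 in control 2, 2349 in control 3, 3044 in control 4 and 3577 in control 5. The race libraries held 2058, 1066, 1497, 1687 and 2484 CPM in the same order. The groups overlapped, with control 2 below 3 of the race libraries and race 5 above 2 controls. The log2 fold change was -0.69 ± 0.27, and it kept a value near that without control 1 (-0.61 ± 0.27) and without control 3, control 4 and control 5 (-0.56 ± 0.35).

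HSPA2, an HSP70 best known in mammals from the testis, stood at 299.8, 77.4, 167, 266 and 311 CPM in control 1 to control 5. In race 1 to race 5 it stood at 122, 79.3, 100.2, 54.4 and 108 CPM. Only control 2 lay within the race range, so the other 4 controls were above every race library. The log2 fold change was -1.27 ± 0.35, or -1.16 ± 0.36 without control 1 and -1.02 ± 0.44 without control 3, control 4 and control 5.

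DNAJB1, the main stress-inducible J-domain partner of HSP70, was far highest in control 1, at 81.4 CPM, with 18.6, 22.5, 25.2 and 16.6 CPM in control 2 to control 5. The race libraries held 15.1, 8.76, 10.1, 5.75 and 19.8 CPM. Race 5 overlapped the controls and the other 4 race libraries lay below them. Much of the log2 fold change of -1.47 ± 0.48 came from control 1, without which it was -0.82 ± 0.32. Without control 3, control 4 and control 5 it was -2.07 ± 0.53, since control 1 then made up 1 of the 2 controls.

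BAG3, which releases substrates from HSP70 and hands them to selective autophagy together with HSPB8, stood at 174 CPM in control 1, 43.2 in control 2, 62.4 in control 3, 81.2 in control 4 and 147 in control 5. In race 1 to race 5 it stood at 33.1, 27.6, 30.02, 38.2 and 37.9 CPM. The race values were close together and the control values were not, with coefficients of variation of 14.1% and 55.4%. The group means were 101 ± 56.2 and 33.4 ± 4.72 CPM (SD, n = 5 each). The log2 fold change was -1.60 ± 0.34, with -1.34 ± 0.29 without control 1 and -1.70 ± 0.39 without control 3, control 4 and control 5. In both subsets every race library stayed below every control, as was so of 3.07% and 19% of all genes. Grouped by title they overlapped and the log2 fold change was 0.25 ± 0.55.

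HSPH1 and HSPA4L are HSP110 proteins, large relatives of HSP70 that exchange its nucleotide and hold unfolded proteins in solution. HSPH1 stood at 55.4, 69.4, 115, 273 and 113 CPM in control 1 to control 5, and at 102, 66.7, 73.7, 68.5 and 87.0 CPM in race 1 to race 5. The race values lay between those of control 2 and control 3, save that race 2 and race 4 were just under control 2. Its log2 fold change of -0.65 ± 0.37 rested on control 4, without which it was -0.15. Without control 1 it was -0.85 ± 0.33. HSPA4L stood at 150.4, 260.5, 418, 542 and 467 CPM in the controls and at 374, 225, 274, 338 and 394 CPM in the race libraries. Every race library lay above control 1 and below control 3, control 4 and control 5. The log2 fold change was -0.19 ± 0.31, with -0.41 ± 0.22 without control 1 and -0.01 without control 4.

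HSP90AA1 encodes the stress-inducible cytosolic HSP90, and AHSA1 the activator of its ATPase. HSP90AA1 stood at 1782, 2287, 5139, 6659.8 and 7146 CPM in control 1 to control 5, and at 4451, 1739.8, 3017, 2505 and 4263 CPM in race 1 to race 5. The controls split into a low pair and 3 high libraries, and 4 of the 5 race libraries lay in the gap between. The log2 fold change was -0.53 ± 0.40, with -0.75 ± 0.35 without control 1 and -0.31 without control 5. AHSA1 stood at 301, 166, 159, 166 and 221 CPM in the controls and at 148, 107, 138, 151 and 168 CPM in the race libraries. Control 1 and control 5 were highest and race 5 lay above the other 3 controls. The log2 fold change of AHSA1 was -0.51 ± 0.21, or -0.34 ± 0.15 without control 1.

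Leaving out control 3, control 4 and control 5 turned the direction of HSP90AA1, HSPA4L and HSPH1. In these genes those controls were the 3 highest libraries, and control 1 was lowest or next to lowest. The log2 fold changes of HSP90AA1, HSPA4L and HSPH1 became 0.65 ± 0.36, 0.64 ± 0.29 and 0.35 ± 0.22. The other 6 genes stayed lower in race. Against control 1 and control 2 alone, 2 of the 9 genes, BAG3 and HSF1, had every race library below, against that 19% of all genes. Grouped by title, HSP90AA1, HSPA4L and HSPH1 stood at 0.95 ± 0.33, 0.75 ± 0.23 and 0.84 ± 0.34, HSPA2 and HSPA8 both at 0.42, and AHSA1 at 0.0072. HSF1 at -0.46 ± 0.28 and DNAJB1 at -0.57 ± 0.60 stayed negative. Among the controls, W-linked expression moved with HSP90AA1, HSPA4L and HSPH1, and other library traits did too. Control 1 and control 2 had 15.7% and 15.1% of counts on no annotated feature, against 17.8% to 20.8% in the other libraries. They also had the fewest genes detected, 16730 and 16796 against 16923 to 17613. The part of these traits in HSP90AA1, HSPA4L and HSPH1 was not tested.

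**Figure D2:**
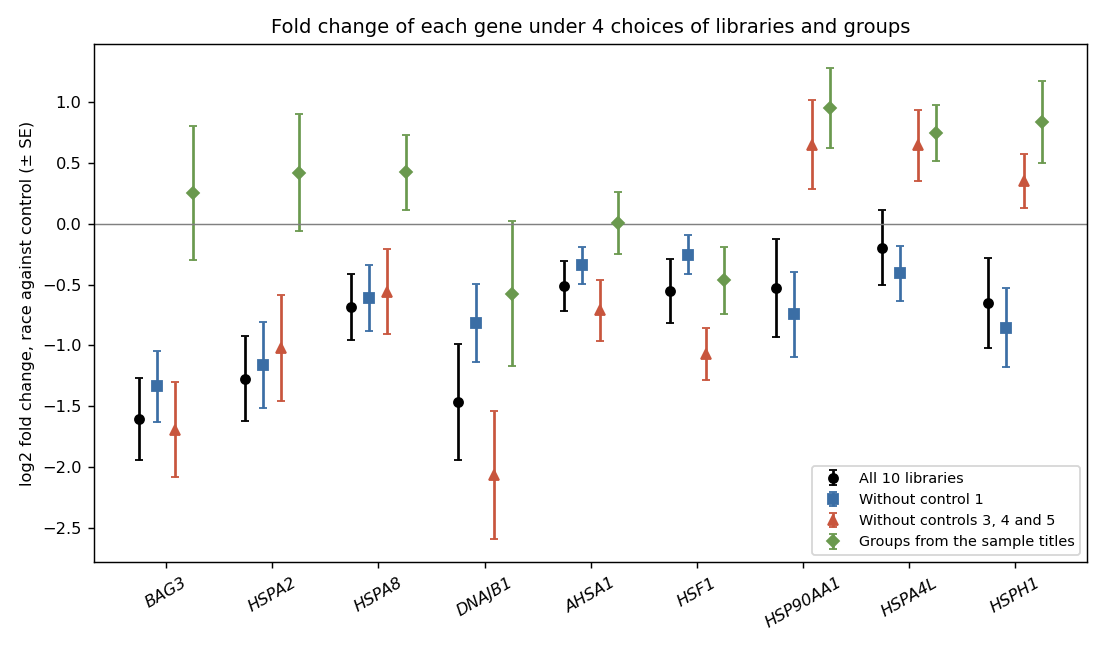
Log2 fold change of race against control (vertical axis, ± SE) for each gene with all 10 libraries (black), without control 1 (blue), without control 3, control 4 and control 5 (red) and with groups from the sample titles (green). HSP90AA1, HSPA4L and HSPH1 cross 0 when control 3, control 4 and control 5 are left out, and 7 of the 9 genes lie above 0 when grouped by title.

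The genes thus differed in which controls were high. Control 1 was the highest of all 10 libraries in BAG3, DNAJB1, AHSA1 and HSF1, and the lowest in HSPH1 and HSPA4L. Control 5 was highest in HSPA2, HSPA8 and HSP90AA1, and control 4 in HSPH1 and HSPA4L. Race 2 was lowest of all in 4 genes, BAG3, HSPA8, HSP90AA1 and AHSA1. Ratios of counts within a library need no scaling, and for pairs picked after the values were seen they showed the same split. HSP90AA1 had 5.92 counts for each count of AHSA1 in control 1, 13.7 in control 2, 32.3 in control 3, 40.01 in control 4 and 32.3 in control 5, and 16.3 to 30.02 in the race libraries. For each count of BAG3 there were 0.866 of HSPA4L in control 1, 3.18 to 6.70 in the other controls and 8.16 to 11.3 in the race libraries. Of 6 pairs computed, 4 overlapped between the groups. The others were both ratios to BAG3, a gene without overlap by itself. HSPA8 per BAG3 was apart only by 38.64 in race 2 against 38.62 in control 2. No share over other pairs of genes is given here, so the count describes these pairs only.

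The genes were also compared for how they varied among birds of the same group. Each group's mean log2 CPM was subtracted, and r over the 10 libraries is given for 36 pairs of genes as a description with no test, since the genes were listed with the spread among these controls in view. BAG3 and AHSA1 had a Pearson r of 0.834 and a Spearman rho of 0.903, and BAG3 and HSPA8 had 0.781 and 0.842. HSPA8 and AHSA1 had 0.759 and 0.867, and HSPA8 and HSPA2 had 0.762 and 0.794. Without control 1 these 4 r values were 0.709, 0.788, 0.829 and 0.734. In the 7 libraries left without control 3, control 4 and control 5 they were 0.903, 0.782, 0.955 and 0.713. HSPA2 and AHSA1 had an r of 0.491, with 0.380 without control 1 and 0.723 in the 7 libraries. BAG3 and HSPA2 had 0.739, with 0.717 without control 1 and 0.401 without control 1 and control 2. DNAJB1 had an r of 0.456 to BAG3, 0.539 to HSPA2, 0.521 to HSPA8 and 0.651 to AHSA1. Without control 1 the r values of DNAJB1 were -0.055, 0.464, 0.462 and 0.175.

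HSP90AA1, HSPA4L and HSPH1, all low in control 1 and control 2, also varied alike. HSP90AA1 and HSPA4L had an r of 0.933 and a rho of 0.927, HSP90AA1 and HSPH1 had 0.813 and 0.879, and HSPH1 and HSPA4L had 0.848 and 0.867. In the 7 libraries these r values were 0.792, 0.894 and 0.771. HSF1 ran opposite to all 3, with an r of -0.849 to HSP90AA1, -0.911 to HSPA4L and -0.814 to HSPH1. That with HSP90AA1 was -0.538 without control 1 and control 2.

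A division of the genes into 2 sets rested in part on control 1. With that library BAG3 had an r of 0.0776 to HSP90AA1 and -0.141 to HSPA4L, and without it 0.723 and 0.700. HSPA8 went from 0.521 to 0.935 with HSP90AA1 and from 0.308 to 0.927 with HSPA4L, and HSPA2 from 0.454 to 0.874 with HSP90AA1. Without control 1 HSPH1 still had a low r to AHSA1 (0.096) and to BAG3 (0.370). Its r was 0.709 to HSPA2 and 0.589 to HSPA8. AHSA1 had 0.639 to HSP90AA1 and 0.606 to HSPA4L, and HSPA2 had 0.715 to HSPA4L. Most pairs across the 2 sets thus no longer showed the division. HSF1 kept an r of -0.811 to HSP90AA1, -0.754 to HSPA4L and -0.769 to HSPH1. Without control 1 it was also opposite to HSPA2 (-0.795), HSPA8 (-0.609), DNAJB1 (-0.596), BAG3 (-0.394) and AHSA1 (-0.106). Its negative r values there do not set HSP90AA1, HSPA4L and HSPH1 apart. Many genes followed the same birds. Among the 14171 other genes tested, AHSA1 ranked 32 and HSPA8 ranked 78 in likeness to BAG3, HSPA4L ranked 38 in likeness to HSP90AA1 and HSP90AA1 ranked 755 in likeness to HSPH1. In all, 521 genes were at least as opposite to HSP90AA1 as HSF1 was.

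**Figure D3:**
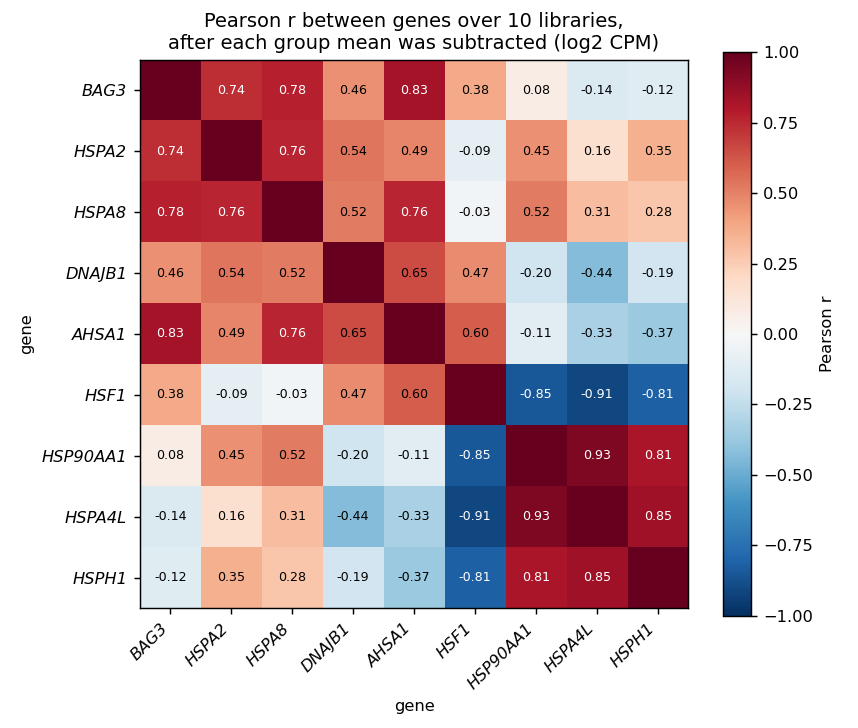
Pearson r between genes (both axes) over 10 libraries after the mean of each group was subtracted from log2 CPM, from -1 (blue) to 1 (red). HSP90AA1, HSPA4L and HSPH1 have r of 0.81 to 0.93 with each other and -0.81 to -0.91 with HSF1, and BAG3, HSPA2, HSPA8 and AHSA1 have r of 0.49 to 0.83 with each other.

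The direction of the BAG3 spread, smaller among race birds, was shared by most genes tested. For BAG3 the coefficient of variation was 14.1% in race and 55.4% in control libraries, or 54.1% among controls without control 1. The coefficient of variation was smaller in race than in control libraries for 8 of the 9 genes and for 81.8% of all genes tested. Without control 1 it was so for 8 of the 9, AHSA1 only just at 15.8% and 16.1%, and for 64.7% of all genes. HSF1 varied by 10.5% among race and 47.0% among control libraries, or 23.97% among controls without control 1. HSPA8 was the exception with all libraries, at 30.7% in race and 28.8% in control, and DNAJB1 without control 1, at 46.7% and 18.8%. Race 1 and race 5 had the most HSP90AA1 and HSPA8 among race libraries. The same libraries had the least FKBP5, a glucocorticoid-induced co-chaperone of HSP90, at 90.8 and 64.5 CPM against 272, 354 and 449.7 CPM in race 2, race 3 and race 4; this was noticed after the values were seen and was not tested.

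The genes whose profile over the 10 libraries was most like the mean of the 9 were HSPA9, the mitochondrial HSP70, with r = 0.980, then NKAIN3, KDELR2, JMJD6 and DNAJA4, a J-domain protein, with r of 0.955, 0.953, 0.951 and 0.947. After subtraction of group means they were HSPA9 (0.972), BHLHA15 (0.942), NKAIN3 (0.918), KDELR2 (0.917) and LOC135576944 (0.917). In likeness to BAG3 alone, a choice made after the values were seen, JMJD6 came first with r = 0.967, and in likeness to HSP90AA1 ERP44 (0.971), MARCHF1 (0.965) and HSP90B1 (0.961). The r values are measures of likeness over libraries that include control 1 and W-expressing birds, and carry no test.

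Of 118 further symbols of the chaperone network 100 were in the tables and 97 were tested. Of these 64 were lower and 33 higher in race libraries, with a median log2 fold change of -0.14, and 0 passed by edgeR over all genes. At an unadjusted p under 0.05 there were 16 lower and 6 higher, or of all genes 7.14% and 6.19%. Every race library lay below every control in 1 gene (1.67% of all genes), DNAJB11, a J-domain protein of the endoplasmic reticulum at -0.31 ± 0.14 (0.012 by title), and above in 1 gene (2.65% of all genes), HSPB3. Without control 3, control 4 and control 5 the median was -0.02 and 51 of 97 were lower, and by title it was 0.05 and 42 were lower. Of the 21 genes named below by smallest p, 11 changed sign by title, and only HSF2 did so without control 3, control 4 and control 5.

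Among other HSP70 and HSP110 proteins 5 of 7 were lower, with a median of -0.23. The direction turned to 0.086 without control 3, control 4 and control 5, with 3 of 7 lower, and to 0.28 by title, with 1 of 7 lower. HSPA5, the HSP70 of the endoplasmic reticulum, stood at -0.72 ± 0.31, HSPA9 at -0.23 ± 0.13 and HYOU1, the HSP110 of the endoplasmic reticulum, at -0.30 ± 0.22. Without control 1 HYOU1 stood at -0.10, and without control 3, control 4 and control 5 at -0.71. By title HSPA5 and HSPA9 stood at 0.13 and 0.10. HSPA5 averaged 619.9 ± 261 CPM in rested and 376 ± 119 CPM in raced birds. Of the nucleotide exchange factors and other partners of HSP70, 8 of 10 were lower, with a median of -0.20, which was -0.05 without control 3, control 4 and control 5 and -0.03 by title. HSPBP1, an exchange factor, stood at -0.80 ± 0.33, but at -0.37 without control 1, and BAG4 at -0.41 and -0.06 in the same order. Without control 3, control 4 and control 5 they stood at -1.42 and -0.96. GRPEL1, the exchange factor of mitochondrial HSP70, stood at -0.16 ± 0.13, or -0.06 without those 3 controls and 0.12 by title.

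The J-domain proteins other than DNAJB1 did not share a direction. Of 40 tested, 18 were lower and 22 higher, with a median of 0.04, or -0.033 without control 1. DNAJA4 stood at -0.62 ± 0.21, from 172 ± 45.1 to 112 ± 19.6 CPM. DNAJC21, a factor of ribosome maturation that is Z-linked, stood at 0.63 ± 0.22. DNAJC10, a disulfide reductase of the endoplasmic reticulum, stood at 0.52 ± 0.18. Without control 3, control 4 and control 5, DNAJA4, DNAJC21 and DNAJC10 stood at -0.27, 1.04 and 0.94. By title they stood at 0.48, 0.19 and 0.07.

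HSP90 relatives and co-chaperones were lower in 13 of 17, with a median of -0.27. It was -0.04 without control 3, control 4 and control 5 and -0.07 by title, with 10 of 17 lower in each. PTGES3, the p23 co-chaperone that stabilises closed HSP90, stood at -0.63 ± 0.23, or -0.37 without control 1, and SUGT1, an adaptor for client receptors, at -0.44 ± 0.18. FKBP5 went the other way at 1.56 ± 0.52, from 83.4 ± 36.2 CPM in rested to 246 ± 166 CPM in raced birds. The groups overlapped in all 3. By title FKBP5 turned to -0.34 and SUGT1 to 0.29, and PTGES3 stood at -0.27. Without control 3, control 4 and control 5 PTGES3 stood at -1.02 and SUGT1 at -0.24.

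The 4 other heat shock factors and regulators had a median of -0.11, or 0.013 without control 3, control 4 and control 5. HSBP1, which binds the trimer domain of HSF1, stood at -0.32 ± 0.14 and HSF2 at -0.11 ± 0.21. HSF2 stood at -0.24 without control 1, and its direction turned to 0.29 without control 3, control 4 and control 5 and to 0.42 by title. HSF5 stood at 1.35 ± 0.43, but its level was low, at 0.34 ± 0.172 CPM in rested and 0.883 ± 0.235 CPM in raced birds, and by title the log2 fold change was -0.0056.

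Small heat shock proteins and partners of BAG3 were lower in 7 of 9, with a median of -0.22, or -0.61 without control 3, control 4 and control 5. HSPB1, also called HSP27, had 20.6 CPM in control 1, 4.09 to 6.08 CPM in the other controls and 2.03 to 5.47 CPM in race libraries, so that its value of -1.31 ± 0.49 was -0.64 without control 1. SYNPO, a relative of the BAG3 partner SYNPO2, stood at -1.53 ± 0.55, with 22.6 CPM in control 1 and 21.9 CPM in control 4. Control 2, control 3 and control 5 held 7.15, 4.66 and 4.34 CPM, and the race libraries 1.65 to 5.96 CPM. HSPB3 was the one gene of these lists with every race library above every control, at 2.47 ± 1.44 and 6.53 ± 1.51 CPM (1.40 ± 0.41); it is Z-linked. By title HSPB1, SYNPO and HSPB3 stood at -0.41, -0.39 and 0.15, and without control 3, control 4 and control 5 HSPB3 stood at 2.46. HSPB8, the partner of BAG3 in selective autophagy, stood at -0.08 ± 0.38, and at 0.26 without control 1. SQSTM1, an autophagy receptor, stood at -0.28 ± 0.20, and at -0.15 without control 1. Without control 3, control 4 and control 5, HSPB8 and SQSTM1 stood at -0.44 and -0.61, and by title at 0.025 and -0.31.

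Chaperonins, the ring-shaped chaperones of the cytosol and mitochondria, and SERPINH1, a collagen chaperone also called HSP47, were lower in 10 of 10, with a median of -0.37. SERPINH1 stood at -0.96 ± 0.35, HSPD1, the mitochondrial HSP60, at -0.42 ± 0.17 and TCP1, a subunit of the cytosolic ring, at -0.46 ± 0.20. Without control 3, control 4 and control 5 the median was -0.03, with 6 of 10 lower and TCP1 at -0.02. By title the median was 0.38, with SERPINH1, HSPD1 and TCP1 at 0.04, 0.20 and 0.47.

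**Figure D4:**
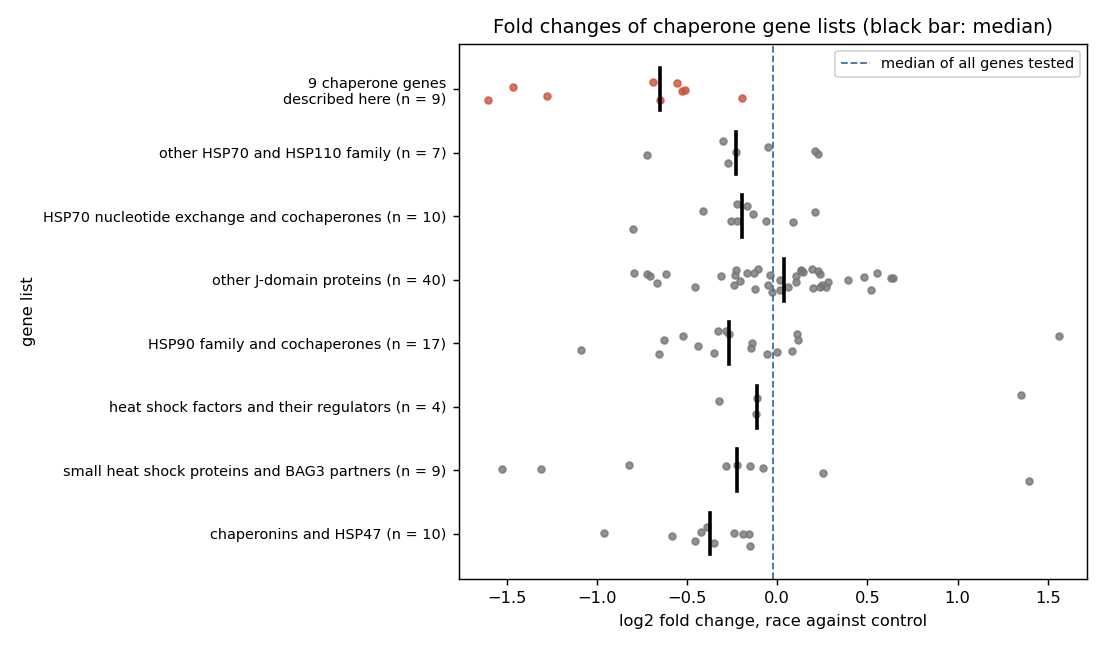
Log2 fold change of race against control (horizontal axis) for the 9 genes (red) and for each tested gene of the further lists (grey, 1 row per list), with the list median as a black bar and the median of all genes tested (-0.03) as a dashed line. The 9 chaperonins and SERPINH1 all lie below 0, and the 40 J-domain proteins spread to both sides.

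Markers of cell types were summed to show what else moved with these libraries. Granule cell markers (7 of 8 in the tables) summed to 1454 to 3179.5 CPM in control and 2199.9 to 2699 CPM in race libraries, and Purkinje cell markers (8 of 8) to 1261 to 1813 and 1369 to 1757 CPM. PCP2 was the defining marker near 0, at most 0.162 CPM. PCP4 was lower in every race library (20.4 to 30.6 CPM) than in every control (38.3 to 118.6 CPM), as were 1.67% of all genes. The other Purkinje cell markers overlapped between the groups. Astrocyte markers (7 of 8) summed to 1836 to 3562 CPM in control and 1377 to 1970.1 CPM in race libraries. Oligodendrocyte markers (6 of 8) gave 2487 to 5659.7 and 1730.2 to 3976 CPM, endothelial markers (7 of 8) 102 to 169 and 93.4 to 221 CPM, and microglial markers (4 of 8) 10.4 to 55.4 and 30.9 to 46.0 CPM. Choroid plexus (5 of 7) gave 15.4 to 128 and 14.2 to 19.5 CPM, red blood cell (2 of 9) 5.92 to 38.1 and 3.82 to 12.98 CPM, with HBAD at most 0.0894 CPM, and forebrain markers (7 of 8) 29.1 to 265 and 29.0 to 48.6 CPM, the highest in control 4. Control 1, highest in BAG3, DNAJB1, AHSA1 and HSF1, was also highest for the granule cell, astrocyte, microglial and red blood cell sums. Single markers of these lists did not all follow. PAX6 and ETV1 were highest in race 4, GABRA6 in race 5 and CX3CR1 in race 1. The astrocyte sum of control 1 was mostly GFAP (2675 CPM). SLC1A3, SLC1A2 and GJA1 were highest in race 1, AQP4 in control 4 and S100B in control 3. The red blood cell sum of control 1 was all SLC4A1. The choroid plexus sum of control 4 was mostly AQP1 (121 CPM). KCNJ13, OTX2 and CLIC6 reached at most 1.48, 2.42 and 3.12 CPM, in control 2, control 5 and control 2, and SLC4A5 was highest in control 1. The part of cell makeup in the chaperone values was not tested, and in whole tissue fewer cells of a type and less RNA per cell cannot be told apart.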

How the data were processed

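Cerebellum RNA of 10 birds was sequenced as 100 bp pairs, per the labels' protocols. Tools named in the submitters' processing notes are HTSeq 0.13.5, STAR 2.7.10a, MultiQC 1.14, FastQC 0.11.5 and fastp 0.23.2. For build, annotation, strand setting and kit, nothing is given in the sources used here. What the authors deposited are raw counts of reads on each gene, 1 table a bird, not normalized. Rows that name no gene held 18.1% to 23.4% of counts and were left out. These include reads placed at more than 1 site (2.37% to 3.90%), so counts of HSPA8, HSPA2 and HSP90AA1, which have close relatives, are uncertain.

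Genes were kept by filterByExpr (minimum count 10) and scaled by TMM. Groups were compared in R 4.3.3 with limma 3.58.1 and edgeR 4.0.16 by the two-sided quasi-likelihood test, adjusted by Benjamini-Hochberg over all genes at a threshold of 0.05. Fold changes are on the log2 scale, and their standard errors were obtained from the F statistic. P-values take libraries as separate birds. Likeness used log2 CPM with a prior count of 2. The depth of 17953704 to 23344086 counts limits low genes such as HSF5. The pipeline was tested on simulated counts. Gene names matched RefSeq for 22268 of 22547 rows.

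The members and lists were chosen with earlier results of these data known. Named are all members, the 3 genes of smallest p in each list, and the 5 genes most like the members by r among genes averaging a log2 CPM of 1 or more. DNAJB11, HSPB8 and SQSTM1 were named with their values known. Alternatives tried were scaling by RLE or by plain library size, other count filters, limma voom, DESeq2 1.42.0, leaving out libraries and groups by title. A planned search of promoters for heat shock elements was not run.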

Additional observations from a re-analysis of the deposited data

Results flagged for a closer look

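The 9 genes and the 21 list genes of smallest p were checked in both groups for a library far from the other 4. In 5 of 60 groups there was one, where chance gives about 1 in 20 for independent groups. These groups are not independent, since all genes were read in the same libraries, so that rate decides nothing here. DNAJB1 stood at 81.4 CPM in control 1 and at 16.6 to 25.2 CPM in the other controls. HSPH1 stood at 273 CPM in control 4 and at 55.4 to 115 CPM in the other controls. HSPBP1 stood at 64.8 CPM in control 1 against 18.1 to 31.3 CPM, PTGES3 at 407 CPM in control 1 against 164 to 228 CPM, and HSPB1 at 20.6 CPM in control 1 against 4.09 to 6.08 CPM. Thus 4 of the 5 were control 1, the library with the scaling factor of 0.794, and 0 were race libraries.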

How the results depend on the processing

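RLE and plain library size scaling, both other count filters and limma voom left all 9 genes lower in race and called 0 genes over all. DESeq2 called 261 genes of 14172 (2318 at an unadjusted p under 0.05, against 1889 by edgeR), with 99 of them lower. Without control 3, control 4 and control 5, edgeR called 3416 of 14697 genes. These included 3 of the 9, BAG3, DNAJB1 and HSF1. The 9 were listed with this contrast known, so that count only describes them. In the same setting 5948 genes had no overlap between groups, against 613 with all libraries. Without control 1 and control 4 edgeR called 40, with 1446 not overlapping. With groups from the titles it called 3, with 370 not overlapping, and the median of the 9 genes was 0.42. Leaving out 1 library gave 0 to 1 genes called, 746 to 1069 not overlapping and a median of -0.81 to -0.57; fewer libraries make separation easier by construction. Reversed by title were BAG3 (0.25), HSPA2 (0.42), HSPA8 (0.42), HSPH1 (0.84), HSP90AA1 (0.95), AHSA1 (0.0072) and HSPA4L (0.75), the chaperonins (0.38) and the other HSP70 proteins (0.28). Reversed without control 3, control 4 and control 5 were HSPH1 (0.35), HSP90AA1 (0.65), HSPA4L (0.64), the other HSP70 proteins (0.086) and the heat shock factors (0.013), and without control 1 the J-domain proteins (-0.033). The cause was not tested.

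No paired analysis was possible because control and race libraries are different birds, their numbers here only follow the order of the records, and no label ties a control bird to a race bird. The promoter search for heat shock elements was not run. Depth limits genes under about 1 CPM, such as HSF5.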
